A study of Mus musculus with 8 samples.

Results

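The mitochondrial genome is copied and read by a small set of proteins that are all encoded in the nucleus. The 10 genes described here, *Tfam*, *Polrmt*, *Polg*, *Polg2*, *Twnk*, *Tfb1m*, *Tfb2m*, *Tefm*, *Lrpprc* and *Slirp*, were taken by name from a table of 54532 genes. *Polg* encodes the catalytic subunit of the mitochondrial DNA polymerase, *Polg2* its accessory subunit and *Twnk* the helicase that opens the DNA ahead of it. *Tfam* packages mitochondrial DNA and bends the promoters, where the RNA polymerase *Polrmt* starts transcription with *Tfb2m*, and *Tefm* keeps the polymerase elongating. *Tfb1m* methylates the small ribosomal RNA, and *Lrpprc* with its partner *Slirp* stabilises the messenger RNAs once they are made. In male germ cells mitochondrial DNA content falls as meiotic cells mature into sperm, and mouse testis is known for alternative *Tfam* transcripts, one of which codes for a protein found in the nucleus.

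RNA was sequenced from 8 libraries of C57BL/6J spermatocytes, 1 for each combination of 2 genotypes, 2 stages and 2 ages. MFN2 WT mice carried Mfn2 loxp/loxp without Cre, and MFN2 cKO mice carried Mfn2 loxp/loxp with Stra8-Cre, which is active from spermatogonia onward and removes exon 6 of *Mfn2*, the gene for an outer-membrane fusion protein. The methods also allow littermates with 1 floxed allele as controls. The stages were pachytene (P) and leptotene or zygotene (L/Z) spermatocytes, separated by sedimentation through BSA and judged by size and shape, and the mice were at postnatal day (PD) 24 or PD 52. Levels are FPKM, fragments scaled for gene length and library size.

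The libraries held 14340665 to 20379950 reads on genes. *Mfn2* was lower in the MFN2 cKO library in each of the 4 pairs of libraries that share stage and age, with FPKM of 34.3 against 82.2 in L/Z at PD 24, 39.6 against 77.1 in P at PD 24, 47.9 against 97.5 in L/Z at PD 52 and 50.1 against 62.2 in P at PD 52, counted over the whole gene and not over exon 6. Both L/Z libraries at PD 52 stood apart and did not match their label well. The summed FPKM of 19 markers of round and elongating spermatids, cells that follow meiosis, was 12933 in the MFN2 WT and 22493 in the MFN2 cKO L/Z library at PD 52, against 231 to 5773 in the other libraries, and *Stra8*, which marks entry into meiosis, was at 15.7 and 5.50 FPKM there against 16.5 and 7.34 in the P libraries of the same age. At PD 24 *Stra8* was higher in L/Z, with 28.4 and 23.8 against 14.6 and 12.8. Some other markers of leptotene and zygotene went the other way at PD 52. Among them *Dmc1* was higher in L/Z, with 8.70 and 5.20 FPKM against 7.68 and 3.59 in P. The summed FPKM ranged from 319 to 649 for 17 leptotene and zygotene markers, higher in P than in L/Z in each of the 4 pairs, from 2940 to 4910 for 14 pachytene markers, from 84.5 to 303 for 14 spermatogonia markers, from 49.0 to 1076 for 14 Sertoli cell markers (higher in P in all 4 pairs), from 34.3 to 921 for 11 Leydig cell markers and 10.8 to 182 for 13 macrophage markers (both higher in MFN2 cKO in all 4 pairs), and from 48.5 to 217 for 8 peritubular myoid cell markers (higher in L/Z in all 4 pairs). Their part in the results on the 10 genes was not tested, also where marker values are given beside a result. In bulk RNA fewer cells of a type and less RNA per cell cannot be told apart.

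Promoter stretches of *Tfam*, *Tfb1m*, *Polrmt* and *Lrpprc* are shown first. The 4 genes were picked after their levels were seen, and a link between motifs and levels was not tested. RefSeq windows on GRCm38.p6 from 250 bases before to 50 bases after the start were found for all 10 genes, 11 windows in all. They were searched on both strands for GCGCATG, the core of the site of nuclear respiratory factor 1, for CCGGAAG, the core bound by GABP and other ETS factors, and for TGACGTCA, the cAMP response element, and these motifs did not overlap in any window. The stretches printed lie outside exons annotated in GENCODE, except for *Tfam*, of which 30 bases around the match are shown. All 4 genes lie on the reverse strand, the sequences read 5′ to 3′ toward the gene, and capitals mark the motifs found. The *Tfam* stretch is chr10:71238073-71238102, the *Tfb1m* stretch chr17:3557905-3558005, the *Polrmt* stretch chr10:79746582-79746831 and the *Lrpprc* stretch chr17:84790790-84791036.
Tfam: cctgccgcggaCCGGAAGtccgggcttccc
Tfb1m: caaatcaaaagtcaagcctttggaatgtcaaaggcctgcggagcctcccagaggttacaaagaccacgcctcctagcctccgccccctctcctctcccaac
Polrmt: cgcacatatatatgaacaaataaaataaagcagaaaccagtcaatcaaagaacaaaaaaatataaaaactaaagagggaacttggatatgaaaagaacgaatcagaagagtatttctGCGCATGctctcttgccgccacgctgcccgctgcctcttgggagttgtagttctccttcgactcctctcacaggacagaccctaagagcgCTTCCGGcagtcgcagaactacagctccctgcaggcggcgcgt
Lrpprc: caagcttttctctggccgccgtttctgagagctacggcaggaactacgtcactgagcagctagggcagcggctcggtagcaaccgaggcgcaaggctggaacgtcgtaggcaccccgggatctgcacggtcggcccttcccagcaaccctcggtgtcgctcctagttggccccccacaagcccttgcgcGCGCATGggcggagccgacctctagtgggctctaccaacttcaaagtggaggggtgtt

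The *Polrmt* window held both the nuclear respiratory factor 1 core, at position -133, and the GABP core, at -43, counted from the RefSeq start. *Lrpprc* held the first, at -61, and *Tfam* held the second, at -47. *Tfb1m* held none of the 3 motifs in its window. Among the other members, *Tfb2m* held the nuclear respiratory factor 1 core and *Polg*, *Polg2*, *Twnk*, *Tefm* and *Slirp* the GABP core. Of 32851 promoter windows, 3.91% held the nuclear respiratory factor 1 core, 8.86% the GABP core and 1.79% the cAMP response element, which was in none of the members' windows. These are matches of letters and not sites of binding, and no binding was measured. GENCODE lists 5 transcripts of *Tfam*, 4 of them protein-coding, with first exons at different places, chr10:71237840-71238280 for Tfam-201, chr10:71237458-71237678 for Tfam-203 and chr10:71236916-71237042 for Tfam-205. Of the 250 bases before the RefSeq start, 236 lie in annotated *Tfam* exons, and the table sums all transcripts of a gene, so the testis transcripts of *Tfam* cannot be told from the others here.

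In the coordinates of the table, which are those of GRCm38, *Tfam* lies at chr10:71225464-71238280, *Polrmt* at chr10:79736123-79746581, *Polg* at chr7:79446231-79466362, *Polg2* at chr11:106768253-106779537, *Tfb1m* at chr17:3519256-3557781, *Tfb2m* at chr1:179528055-179546267, *Tefm* at chr11:80136678-80142175 and *Lrpprc* at chr17:84705247-84790789, all on the reverse strand. *Twnk* lies at chr19:45006558-45012762 and *Slirp* at chr12:87443896-87452206 on the forward strand.

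The median levels over the 8 libraries ran from *Polg* at 15.7 FPKM and *Tfb1m* at 10.99 through *Polrmt* (7.73), *Lrpprc* (7.27), *Tfam* (5.56), *Tfb2m* (5.10), *Twnk* (3.65) and *Tefm* (2.97) to *Polg2* (0.964) and *Slirp* (0.360). *Tfam* varied most of the 10. Its highest library was 11.4-fold above its lowest, and 6.13% of the 21175 genes that exceeded 1 FPKM somewhere had a larger standard deviation over the libraries on the log2(FPKM + 1) scale. *Tfb1m* spanned 3.18-fold, *Twnk* 3.05-fold and *Polg* 1.48-fold, the narrowest span. For *Polg*, 94.8% of genes had a larger standard deviation. A total of 6 members (*Polrmt*, *Lrpprc*, *Tfb2m*, *Twnk*, *Tefm* and *Polg2*) were lowest in the MFN2 cKO L/Z library at PD 52, the library in which *Tfam* and *Tfb1m* were highest. For *Tfb2m*, *Tefm* and *Polg2* the 95% counting interval of the step to the next library held 1. The ratios were 1.17 (0.923 to 1.49), 1.07 (0.712 to 1.60) and 1.01 (0.617 to 1.64). How many of all genes were lowest in that library was not counted.

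**Figure D1:**
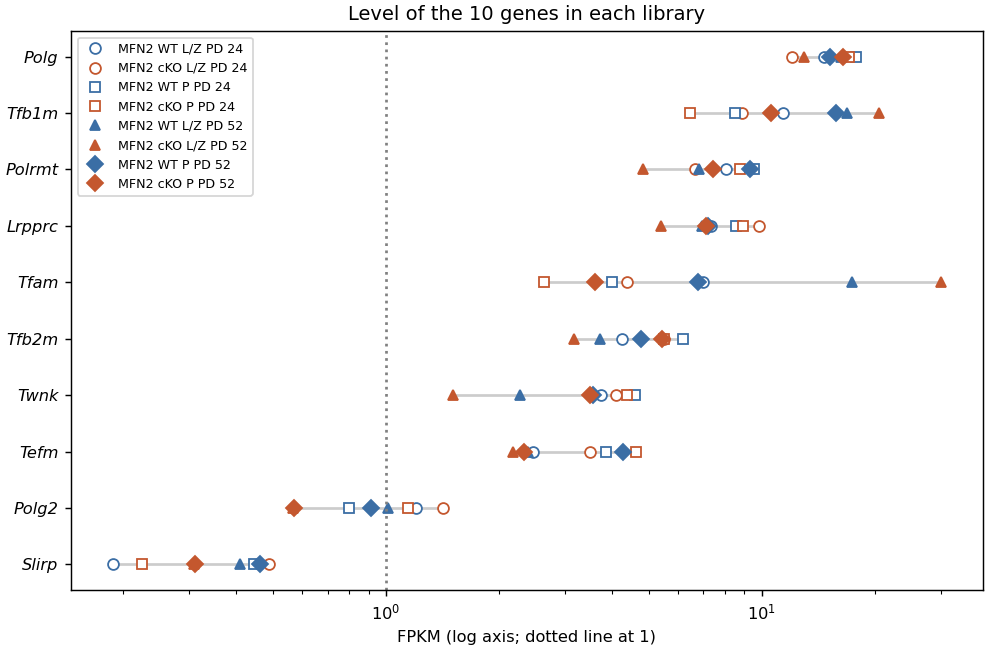
FPKM of each of the 10 genes in each of the 8 libraries on a log axis, 1 point per library (blue MFN2 WT, orange MFN2 cKO; open symbols PD 24, filled symbols PD 52; circles and triangles L/Z, squares and diamonds P). Genes are ordered by their median, and *Tfam* stretches from 2.63 to 30.03 FPKM while *Polg* stays between 12.1 and 17.8.

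*Tfam* was at 6.99 FPKM in MFN2 WT and 4.37 in MFN2 cKO L/Z spermatocytes at PD 24, and at 3.99 and 2.63 in P spermatocytes of that age. At PD 52 it was at 17.4 and 30.03 in L/Z and at 6.76 and 3.60 in P. Both L/Z libraries at PD 52 were above all others. In the order of libraries, 3 of the 7 neighbouring steps were within counting error (the 95% interval of the ratio held 1), those between MFN2 WT L/Z at PD 24 and MFN2 WT P at PD 52, between MFN2 cKO L/Z and MFN2 WT P at PD 24, and between MFN2 WT P at PD 24 and MFN2 cKO P at PD 52.

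*Tfb1m* was at 11.4 FPKM in MFN2 WT and 8.87 in MFN2 cKO L/Z, and 8.52 and 6.45 in P at PD 24. At PD 52 the values were 16.9 and 20.5 in L/Z and 15.8 and 10.6 in P. At the later age 3 libraries lay above all those of PD 24, and MFN2 cKO P lay within their range. A total of 142 bases of its exons, 3.93%, overlap *Tiam2* on the opposite strand, which had a median of 0.418 FPKM.

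Of the replication genes, *Polg* was at 14.6 FPKM in MFN2 WT and 12.1 in MFN2 cKO L/Z and 17.8 and 17.1 in P at PD 24. It was at 16.2 and 12.9 in L/Z and 15.2 and 16.5 in P at PD 52. It was the most abundant member in 5 libraries, stood below *Tfb1m* in MFN2 WT P at PD 52 and stood below both *Tfam* and *Tfb1m* in the L/Z libraries of that age. Its partner *Polg2* was far lower, at 1.20 and 1.42 in L/Z and 0.797 and 1.15 in P at PD 24, and at 1.01 and 0.565 in L/Z and 0.916 and 0.569 in P at PD 52, on 36 to 110 reads per library. None of the 7 neighbouring steps in its order exceeded counting error. *Twnk* was at 3.75 and 4.11 FPKM in L/Z and 4.60 and 4.39 in P at PD 24, and at 2.28 and 1.51 in L/Z and 3.56 and 3.50 in P at PD 52. Both L/Z libraries at PD 52 were its lowest. Of the exon bases of *Twnk*, 12.6% overlap *Mrpl43* on the opposite strand, a gene at a median of 23.7 FPKM, and the library kit did not keep strand.

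Of the transcription genes, the polymerase *Polrmt* was at 8.05 FPKM in MFN2 WT and 6.67 in MFN2 cKO L/Z and 9.53 and 8.73 in P at PD 24. At PD 52 it was at 6.83 and 4.85 in L/Z and 9.31 and 7.41 in P. It was lower in MFN2 cKO in each of the 4 pairs and higher in P in each of the 4 stage pairs. *Tfb2m*, which melts the promoter for the polymerase, was at 4.25 and 5.49 in L/Z and 6.17 and 5.50 in P at PD 24, and at 3.72 and 3.17 in L/Z and 4.78 and 5.43 in P at PD 52. Its neighbouring steps were all within counting error, and 31.9% of its 50-base windows also occur in the pseudogene *Gm1818*, so its reads may be split. *Tefm* was at 2.46 and 3.48 in L/Z and 3.85 and 4.62 in P at PD 24, and at 2.38 and 2.18 in L/Z and 4.29 and 2.33 in P at PD 52. The MFN2 cKO P library at PD 52, on 53 reads, was thus close to both L/Z libraries of its age and to MFN2 WT L/Z at PD 24. It was far from its MFN2 WT partner.

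Of the pair that protects mitochondrial messenger RNAs, *Lrpprc* was at 7.35 FPKM in MFN2 WT and 9.82 in MFN2 cKO L/Z and 8.52 and 8.92 in P at PD 24. It was at 6.94 and 5.38 in L/Z and 7.19 and 7.11 in P at PD 52. All 4 libraries of PD 52 were below all 4 of PD 24. *Slirp* was never above 1 FPKM, with 0.188 and 0.490 in L/Z and 0.447 and 0.225 in P at PD 24, and 0.409 and 0.309 in L/Z and 0.462 and 0.311 in P at PD 52. It rested on 11 to 28 reads. Of its annotated exon bases, 93.9% overlap exons of *Snw1* on the opposite strand, a gene at a median of 8.41 FPKM, and without strand these reads cannot be assigned to either. The values of *Slirp* are therefore uncertain, and the other 9 members were tested.

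The first question was whether loss of MFN2 was accompanied by a change in these genes. None of the 9 members passed, and 0 had an unadjusted p under 0.05, in a limma fit over the 4 genotype pairs. Over all 21175 genes 29 passed, 28 higher and 1 lower in MFN2 cKO, which is 0.137%, and 1467 had an unadjusted p under 0.05. The fitted differences, MFN2 cKO minus MFN2 WT on the log2(FPKM + 1) scale, ran from -0.27 for *Polrmt* (SE 0.14, limma adjusted p = 0.780) to 0.04 for *Tfb2m* (SE 0.15, limma adjusted p = 0.981), with 7 below 0 and 2 above, and their median of -0.09 stood beside -0.04 for all genes. The 95% interval of the difference was -0.89 to 0.37 for *Tfam*, -0.66 to 0.19 for *Tfb1m*, -0.60 to 0.07 for *Polrmt* and -0.36 to 0.41 for *Lrpprc*. *Mfn2* itself differed by -0.87 (SE 0.19, limma adjusted p = 0.275).

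Within single pairs, where 1 library a group allows no test, no member reached a 2-fold difference on the log2(FPKM + 1) scale between genotypes. Of all genes with FPKM above 1 in either library, 10.5% did in L/Z at PD 24, 8.08% in P at PD 24, 7.95% in L/Z at PD 52 and 11% in P at PD 52. *Tfam* came closest. Its MFN2 cKO to MFN2 WT ratio of FPKM was 0.625 in L/Z and 0.659 in P at PD 24 and 0.533 in P at PD 52, but 1.72 in L/Z at PD 52, with 95% counting intervals of 0.546 to 0.716, 0.554 to 0.783, 0.454 to 0.625 and 1.60 to 1.85. *Tfb1m* had the same directions, with ratios of 0.779, 0.757, 0.671 and 1.22. The summed spermatid markers moved the same way in these pairs, from 3256 to 753, from 1636 to 231 and from 5773 to 2893, and up from 12933 to 22493. Without both L/Z libraries of PD 52 the fitted difference was -0.60 for *Tfam* (limma adjusted p = 0.340) and -0.40 for *Tfb1m* (limma adjusted p = 0.594), neither of which passed. *Polrmt* had ratios of 0.828, 0.916, 0.796 and, in L/Z at PD 52, 0.710.

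**Figure D2:**
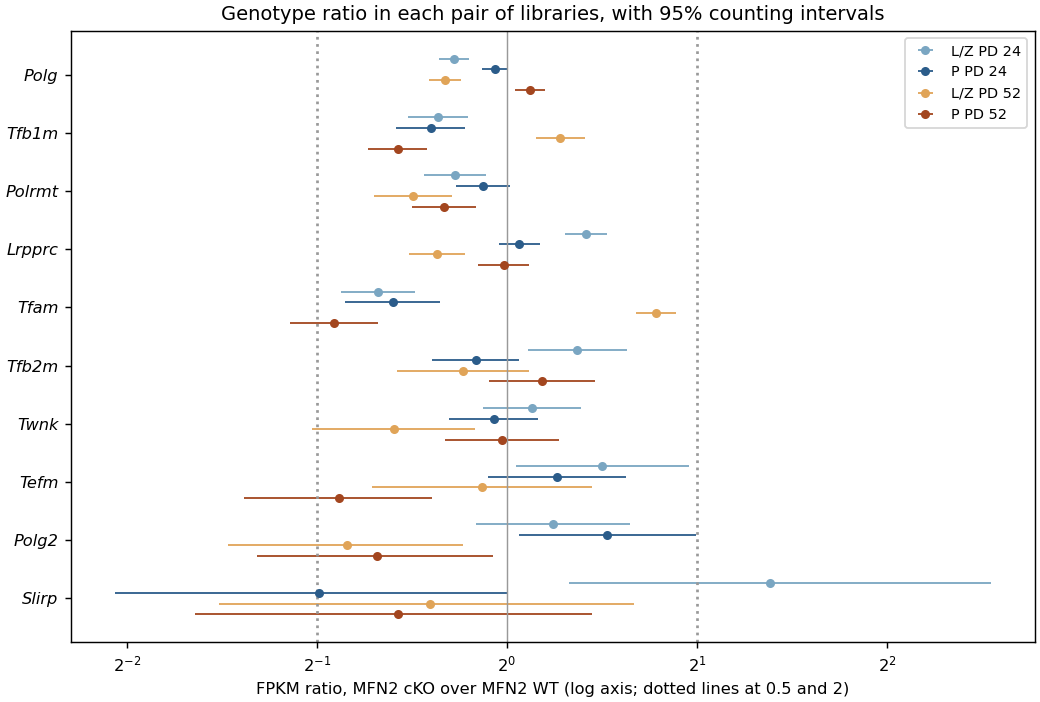
Ratio of FPKM in MFN2 cKO over MFN2 WT for each gene in each of the 4 pairs of libraries on a log axis, with 95% Clopper-Pearson intervals that cover counting error only. *Tfam* and *Tfb1m* lie below 1 in 3 pairs and above 1 in L/Z at PD 52, and *Slirp* has the widest intervals.

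The second comparison asked where in meiotic prophase the genes were higher. *Tfam* was lower in P than in L/Z, by 1.31 on the log2(FPKM + 1) scale (P minus L/Z -1.31, SE 0.35, limma adjusted p = 0.0301), and lower in each of the 4 pairs. It was the only member that passed, beside 28.4% of all genes, of which 12.4% were higher and 16% lower in P. The ratios of P to L/Z for MFN2 WT were 0.571 at PD 24 and 0.388 at PD 52, and those for MFN2 cKO were 0.602 and 0.12. Without both L/Z libraries of PD 52 the difference was -0.62 and did not pass (limma adjusted p = 0.123). The summed spermatid markers were also lower in P in each of the 4 pairs, and 16 of the 19 passed as lower. The remaining members ran from -0.44 for *Tfb1m* to 0.41 for *Twnk*, with 6 above 0. *Polrmt* (0.37, SE 0.14, limma adjusted p = 0.0823), *Tefm* (0.38, SE 0.15, limma adjusted p = 0.101), *Twnk* (0.41, SE 0.17, limma adjusted p = 0.108) and *Tfb1m* (-0.44, SE 0.17, limma adjusted p = 0.0916) were past an unadjusted 0.05 only. Over all 21175 genes 8849 had an unadjusted p under 0.05 in this fit. The median over the 9 members was 0.24, beside -0.04 over all genes.

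In single stage pairs *Tfam* was at least 2-fold lower in P in both genotypes at PD 52, and no other member was called. Over all genes 16.3% were called at PD 24 and 20.2% at PD 52 for MFN2 WT, and 20% and 24.7% for MFN2 cKO. *Twnk* was 2.32-fold higher by FPKM in P in MFN2 cKO at PD 52 (1.76 to 3.07), which is a difference of 0.84 on the log2(FPKM + 1) scale and so was not called.

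The third comparison set adult testis against the first wave of spermatogenesis. *Tfb1m* was higher at PD 52, by 0.78 on the log2(FPKM + 1) scale (SE 0.16, limma adjusted p = 0.0257), and higher in each of the 4 pairs, with ratios of 1.48 in MFN2 WT and 2.31 in MFN2 cKO L/Z and of 1.85 and 1.64 in P. Of all genes 17.3% passed, 11.9% higher and 5.41% lower. *Tfam* differed by 1.18 (SE 0.36, limma adjusted p = 0.0701), with ratios of 2.49, 6.87, 1.69 and 1.37 in the same order, and did not pass, nor did it without both L/Z libraries of PD 52 (0.49, limma adjusted p = 0.270). The other 7 members lay below 0, from -0.53 for *Twnk* (SE 0.18, limma adjusted p = 0.0856) to -0.01 for *Polg* (SE 0.14, limma adjusted p = 0.969), and none passed. *Lrpprc* differed by -0.34 (SE 0.16, limma adjusted p = 0.186). The call of *Tfb1m* was lost without both L/Z libraries of PD 52 (0.73, limma adjusted p = 0.145), without the MFN2 WT L/Z pair (0.0782), without the MFN2 cKO L/Z pair (0.0653), without the MFN2 cKO P pair (0.115) and without an FPKM filter (0.0587). The spermatid markers were higher at PD 52 in each of the 4 pairs, and 17 of 19 passed as higher.

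In single age pairs *Tfam* was at least 2-fold higher at PD 52 in both genotypes of L/Z, *Tfb1m* in MFN2 cKO L/Z only, and *Twnk* was lower by more than 2-fold in MFN2 cKO L/Z (ratio 0.368, 0.281 to 0.476), a call that was lost with further median-of-ratios scaling. No member was called in P spermatocytes. Over all genes 13.3% were called in MFN2 WT L/Z, 31.5% in MFN2 cKO L/Z, 14.6% in MFN2 WT P and 18.9% in MFN2 cKO P. The difference between the ages in the genotype effect was tested as an interaction, which 3 of 21175 genes (0.0142%) and none of the members passed.

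**Figure D3:**
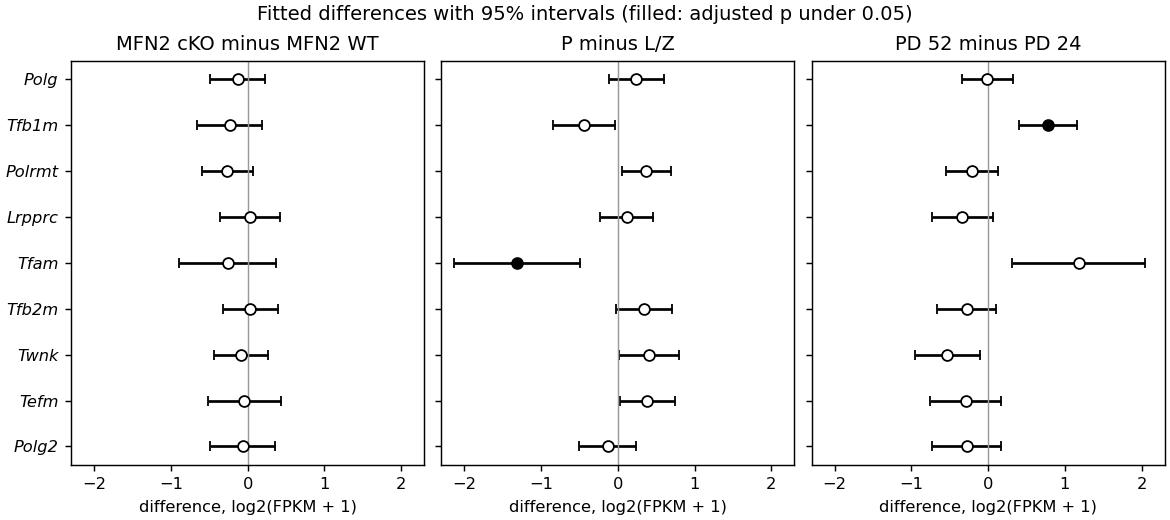
Fitted differences on the log2(FPKM + 1) scale for the 9 tested genes, with 95% intervals, for genotype, stage and age (limma, 4 pairs of libraries each; filled points have adjusted p under 0.05). The filled points are *Tfam* at -1.31 in the stage panel and *Tfb1m* at 0.78 in the age panel, and all 9 genotype intervals include 0.

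The mitochondrially encoded transcripts were set beside these genes. Of the 13 encoded messenger RNAs, 7 (*mt-Co1*, *mt-Cytb*, *mt-Nd1*, *mt-Nd2*, *mt-Nd5*, *mt-Nd6* and *mt-Atp8*) shared under 25% of their 150-base windows with nuclear transcripts. The others shared between 59.2% (*mt-Nd4*) and 99.8% (*mt-Co3*). The summed FPKM of the 7 was 6949 in MFN2 WT and 7634 in MFN2 cKO L/Z and 9226 and 8944 in P at PD 24, and 3662 and 3165 in L/Z and 7473 and 5783 in P at PD 52. Both L/Z libraries of PD 52 were the lowest, and they were the libraries in which *Tfam* and *Tfb1m* were highest and *Twnk* lowest. The share of all reads on the 37 mitochondrially encoded genes was 0.495% and 0.401% in these libraries and 0.866% to 1.43% in the other 6.

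The summed level was higher in P than in L/Z in all 4 pairs, with a mean log2 difference of 0.63 ± 0.38 (SD, n = 4 pairs, exact permutation p = 0.125), and lower at PD 52 in all 4 pairs, by -0.78 ± 0.41 (SD, n = 4 pairs, exact permutation p = 0.125). Both are two-sided sign-flip tests, for which 0.125 is the smallest p that 4 pairs allow, and p is 0.188 after adjustment over the 3 factors. Between genotypes it was higher in MFN2 cKO in 1 pair and lower in 3, with a mean of -0.12 ± 0.22 (SD, n = 4 pairs, exact permutation p = 0.375), which is within the spread of the pairs. Of 13 tested Sertoli cell markers, 12 passed as higher in P and 7 as lower at PD 52. Of 19 spermatid markers, 16 passed as lower in P and 17 as higher at PD 52. The part of these cells in the mitochondrial sum was not tested.

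**Figure D4:**
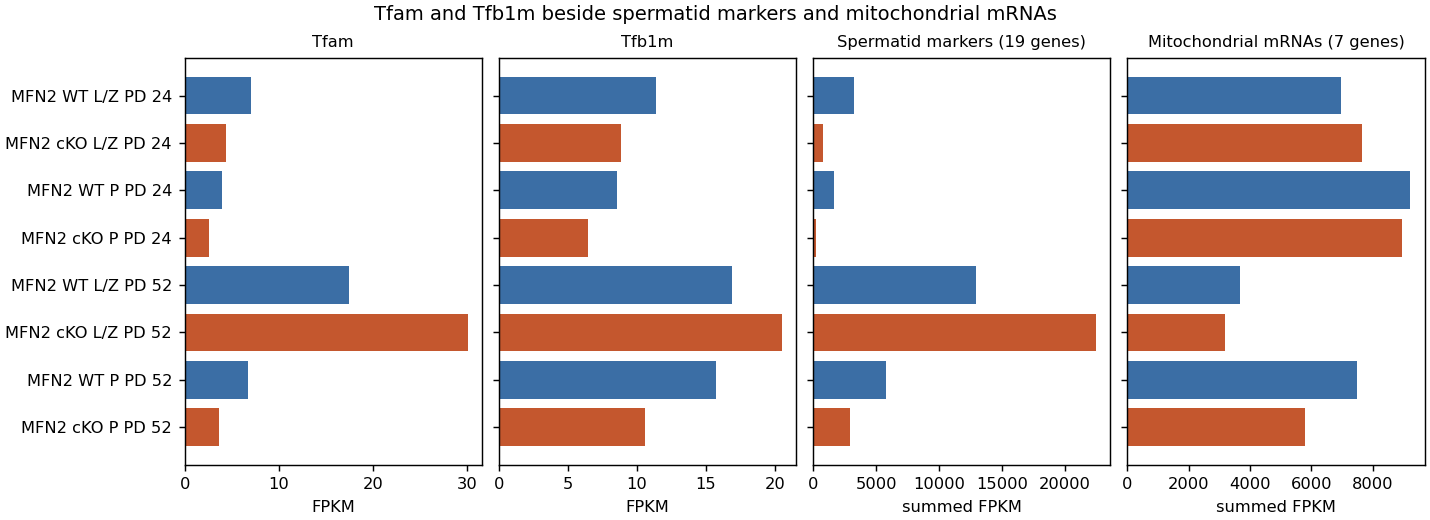
FPKM of *Tfam* and of *Tfb1m*, summed FPKM of 19 spermatid markers and summed FPKM of 7 mitochondrially encoded messenger RNAs in each of the 8 libraries (blue MFN2 WT, orange MFN2 cKO). In both L/Z libraries of PD 52 the first 3 panels have their highest bars and the last panel its lowest, 3662 and 3165.

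Most of the single messenger RNAs moved in the direction of their sum. *mt-Co1* was the largest part of that sum in every library, so its own likeness to the sum carries little information. Of its windows, 23.6% were shared with a nuclear transcript. *mt-Co1*, a catalytic subunit of complex IV, was at 3114 and 3397 FPKM in MFN2 WT and MFN2 cKO L/Z and 4534 and 4374 in P at PD 24, and at 1753 and 1637 in L/Z and 4081 and 2987 in P at PD 52. It was higher in P (0.75, SE 0.20, limma adjusted p = 0.0297) and lower at PD 52 (-0.65, SE 0.15, limma adjusted p = 0.0349). *mt-Cytb*, of complex III, was at 1404 and 1685 in L/Z and 1739 and 1823 in P at PD 24, and at 741 and 590 in L/Z and 1100 and 952 in P at PD 52. It was lower at PD 52 (-1.01, SE 0.15, limma adjusted p = 0.0150), as were *mt-Nd2* (-0.96, SE 0.16), *mt-Nd5* (-0.998, SE 0.15) and *mt-Nd6* (-1.14, SE 0.23) of complex I, with limma adjusted p of 0.0179, 0.0150 and 0.0256. Of these genes *mt-Nd2* and *mt-Nd5* were also higher in P, by 0.62 and 0.68 (limma adjusted p = 0.0421 and 0.0409). *mt-Nd1* did not pass with age (-0.62, limma adjusted p = 0.0989) or stage (0.53, limma adjusted p = 0.129), and it differed from the sum in 1 pair of each, with ratios of 1.05 for PD 52 to PD 24 in MFN2 WT P and 0.940 for P to L/Z in MFN2 cKO at PD 24. In that stage pair *mt-Nd6* was also lower in P, with a ratio of 0.938. None of the calls on mitochondrial genes with stage or age passed without both L/Z libraries of PD 52 or without an FPKM filter. Of 8 age calls, 0 remained without the MFN2 cKO P pair and 1 without the MFN2 WT L/Z pair. Without the MFN2 cKO L/Z pair 4 remained, and 7 without the MFN2 WT P pair. Of 8 stage calls, which include RNAs other than messengers, 2 remained with any pair left out. The stage calls of *mt-Co1*, *mt-Nd2* and *mt-Nd5* held in 4, 3 and 4 of 11 alternatives. *mt-Atp8* had 0 to 4 reads a library and carries no information. None of these genes passed between genotypes, where limma adjusted p ran from 0.806 for *mt-Nd5* upward.

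Of the ribosomal RNAs, *mt-Rnr2* was higher in P in all 4 pairs like the summed messenger RNAs, and *mt-Rnr1* was not. *mt-Rnr1*, the RNA that *Tfb1m* methylates, was at 75.3 and 85.6 FPKM in L/Z and 80.5 and 73.6 in P at PD 24, and at 70.9 and 77.3 in L/Z but 198 and 176 in P at PD 52. Both P libraries of PD 52 stood above the other 6, whose values were close together. *mt-Rnr2*, the large ribosomal RNA, was at 81.1 and 76.5 in L/Z and 113 and 111 in P at PD 24, and at 47.6 and 58.2 in L/Z and 116 and 198 in P at PD 52. It was higher in P (1.00, SE 0.24, limma adjusted p = 0.0224), whereas *mt-Rnr1* did not pass (0.63, SE 0.30, limma adjusted p = 0.152), and neither passed with age (0.58 for *mt-Rnr1* and -0.07 for *mt-Rnr2*, limma adjusted p = 0.205 and 0.860). The sources used here do not say whether RNA was selected by poly(A) or depleted of ribosomal RNA, and either step changes how much of these RNAs is read.

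**Figure D5:**
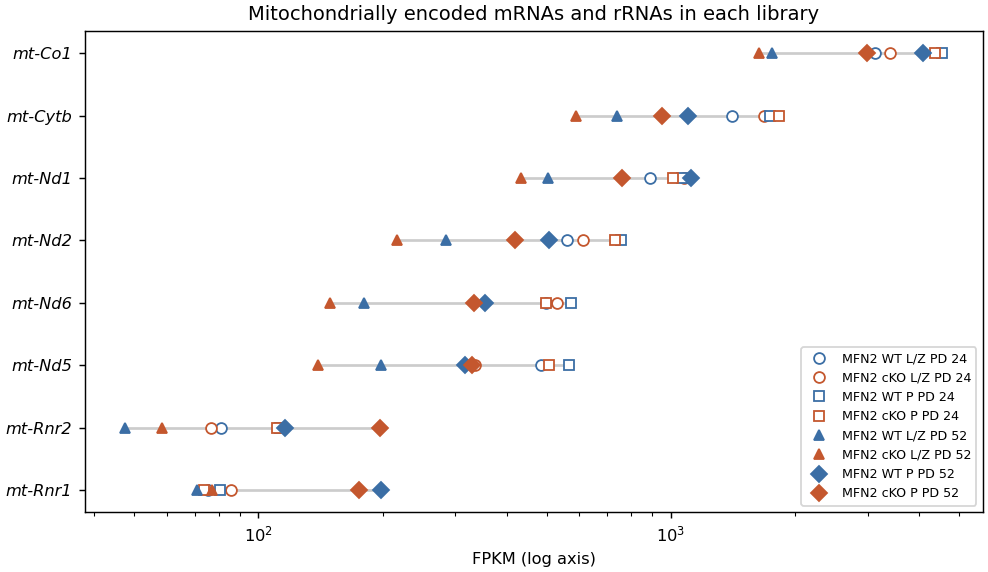
FPKM of 6 mitochondrially encoded messenger RNAs and the 2 ribosomal RNAs in each of the 8 libraries on a log axis, with the symbols of the plot of the 10 genes. For each messenger RNA both triangles, the L/Z libraries of PD 52, are at the left end, and *mt-Rnr1* has its highest values, 198 and 176, in both P libraries of PD 52.

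Other genes of the same pathways were read from 6 lists, whose counts stand beside the 28.4% of all genes that passed with stage and the 17.3% that passed with age. Of 21 stage calls and 7 age calls in the lists, 0 remained without both L/Z libraries of PD 52, although all kept their sign. Without the MFN2 WT PD 24 pair or the MFN2 cKO PD 52 pair 5 of the stage calls remained, and without the MFN2 WT L/Z pair or the MFN2 cKO P pair 0 of the age calls did. Among 17 replication and nucleoid partners, 2 were higher and 2 lower in P, and 1 was lower at PD 52. The protease *Lonp1* was higher in P (0.54, SE 0.15, limma adjusted p = 0.0328) and lower at PD 52 (-0.73, SE 0.15, limma adjusted p = 0.0265), and the topoisomerase *Top3a* was higher in P (0.55, SE 0.15). The mitochondrial topoisomerase *Top1mt* (-0.64, SE 0.13) and the flap nuclease *Fen1* (-0.62, SE 0.17) were lower in P. The most abundant genes of this list, *Poldip2* and the ligase *Lig3*, had medians of 43.4 and 35.6 FPKM. Among 9 genes of nucleotide supply, the thymidine kinase *Tk2* (1.01, SE 0.14) and the carrier *Slc25a36* (0.52, SE 0.14) were higher and *Cmpk2* lower (-0.74, SE 0.15) in P, and *Slc25a36* was lower at PD 52 (-0.88, SE 0.13, limma adjusted p = 0.0150). *Slc25a33* and *Tymp* were its most abundant members, at 31.9 and 28.3 FPKM. Of 5 genes of the transcription termination family, led by *Mterf3* at 10.99 FPKM and *Mterf4* at 3.64, none passed in any comparison in the limma fits, and none had an unadjusted p under 0.05. Over all 21175 genes 1467, 8849 and 7953 had such a p with genotype, stage and age.

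In the list of mitochondrial RNA processing and modification, 7 of 25 tested genes were higher and 1 lower in P, and 1 was higher and 1 lower at PD 52, beside 12.4% higher and 16% lower in P over all genes. *Mrm2*, *Trmu* and *Ptcd1*, which act on ribosomal RNA, transfer RNA and RNA maturation, were higher in P by 0.84, 0.83 and 0.81 (SE 0.23, 0.18 and 0.15). *Nsun4*, which methylates the same small ribosomal RNA as *Tfb1m*, was also highest in both L/Z libraries of PD 52, but unlike *Tfam* and *Tfb1m* it was higher in MFN2 cKO than in its partner in P at PD 52. It was at 21.7 and 7.81 FPKM in L/Z and 11.2 and 4.84 in P at PD 24, and at 57.0 and 59.1 in L/Z and 13.3 and 21.8 in P at PD 52. It was lower in P (-1.23, SE 0.24, limma adjusted p = 0.0111) and higher at PD 52 (1.58, SE 0.39, limma adjusted p = 0.0423), and *Gtpbp3* moved the other way with age (-0.65, SE 0.17, limma adjusted p = 0.0482). *Nsun2* led this list at 39.1 FPKM. Of 14 genes of RNA stability and decay, the helicase *Ddx28* (1.31, SE 0.18) and *Fastkd1* (0.90, SE 0.16) were higher and *Fastkd2* lower (-0.63, SE 0.18) in P, and none passed with age. *Dhx30* and *Grsf1*, which binds G-rich mitochondrial RNA, led it at 35.3 and 34.2 FPKM.

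Of 15 tested nuclear regulators of mitochondrial biogenesis, *Myc* was the only gene of the 6 lists that passed between genotypes. It was at 13.9 against 4.54 FPKM, 5.07 against 1.15, 6.09 against 0.541 and 4.29 against 0.941 in MFN2 cKO against MFN2 WT, in L/Z and P at PD 24 and then L/Z and P at PD 52, a difference of 1.64 (SE 0.18, limma adjusted p = 0.0462). The call held in 2 of 11 alternatives, those with protein-coding genes only and with voom, and was lost with any pair left out and without both L/Z libraries of PD 52 (1.46, limma adjusted p = 0.114), with limma adjusted p from 0.0163 to 0.282 over all 11. Between genotypes, leaving out the L/Z pair of PD 52 and leaving out both of its libraries are the same fit. Macrophage and Leydig cell markers were also higher in MFN2 cKO in each of the 4 pairs. *Sp1* (0.92, SE 0.22), *Yy1* (0.68, SE 0.14) and *Tfeb* (0.53, SE 0.17) were higher in P, and *Pprc1* (-0.83, SE 0.18), *Sirt1* (-0.67, SE 0.16) and *Gabpb2* (-0.55, SE 0.14) were lower at PD 52. *Nrf1*, nuclear respiratory factor 1, was between 2.20 and 3.50 FPKM in every library, and *Gabpa* between 4.47 and 9.78. Neither passed in any of the comparisons. *Ppargc1a*, the coactivator known for driving mitochondrial biogenesis, did not reach 1 FPKM in any library.

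The genes whose levels followed a member most closely were found among 7265 protein-coding genes with a median above 5 FPKM, by Pearson's r of log2(FPKM + 1) over the 8 libraries, which share their cell makeup and scaling. For *Tfam* they were *Usp12* (0.993), *Ufd1* (0.991) and *Msi2* (0.989). *Usp12* ran from 7.24 FPKM in MFN2 cKO P at PD 24 to 30.3 in MFN2 cKO L/Z at PD 52, the same extremes as *Tfam*. For *Polrmt* they were *Gpat2* (0.962), *Gna11* (0.961) and *Axin1* (0.957), and for *Lrpprc* *Cebpz* (0.992), *Mzt1* (0.981) and *Copb1* (0.979). With 8 libraries that include a pair standing apart, such values describe these libraries only. Among the members, *Tfb1m* had r of 0.908 with *Tfam*, whereas *Tfb2m* (-0.946), *Lrpprc* (-0.817) and *Polrmt* (-0.738) ran against it.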

How the data were processed

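RNA-seq of 8 spermatocyte libraries was used, 1 per genotype, stage and age, grouped from the sample labels. The authors sequenced paired-end reads from a kit that does not mark strand and deposited FPKM for 54532 genes, made with Novomagic, with libraries scaled. The submitters' processing notes name CASAVA 1.4, Bowtie 0.12.2, mm8 and mm9, with no roles given, but 98.1% of the deposited gene coordinates were identical in GENCODE M21 on GRCm38. Within each library the product of FPKM and length was a whole number of equal steps (100% of values within 0.01), which gave 14340665 to 20379950 reads on genes, with a median of 16285571.

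Because FPKM are not counts, genes above 1 FPKM in any library were fitted with limma 3.58.1 in R 4.3.3 on log2(FPKM + 1), a scale that understates changes of low genes. Each fit had the 4 pairs of libraries sharing both other factors as a block. Adjusted p-values are Benjamini-Hochberg over all 21175 genes, called under 0.05. The 3 fits use the same 8 libraries. Nothing shows that the pairs stem from separate animals, so p-values measure the spread between these libraries. Intervals from reads are exact Clopper-Pearson 95% intervals and cover counting error only. The fits were tested on simulated data. Python 3.11.15 served the remaining steps. The settings varied were the pseudocount (0.1), the FPKM filter (none), further median-of-ratios scaling (factors 0.959 to 1.07), protein-coding genes only, limma voom on recovered reads, an additive model and each pair left out. Leaving out both L/Z libraries of PD 52 was added after seeing the data.

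The 10 genes, the lists and the tests were chosen with earlier results of these data known. The genes named besides the 10 followed a rule: mitochondrial messenger RNAs with under 25% of windows shared and both ribosomal RNAs, list genes that passed a fit (up to 3 per direction and fit), up to 2 list genes of highest median, *Mfn2*, and the 3 genes most like *Tfam*, *Polrmt* and *Lrpprc*. Marker lists were summed, with at most 2 genes named. *Dmc1*, *mt-Nd4*, *mt-Co3*, *Nrf1*, *Gabpa*, *Ppargc1a* and genes that overlap a member were named after their values were seen.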

Additional observations from a re-analysis of the deposited data

Results flagged for a closer look

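3 of the 10 genes had opposite genotype directions at the 2 ages, higher in MFN2 cKO in both pairs of PD 24 and lower in both pairs of PD 52. For *Lrpprc* the difference of the genotype effect, PD 52 minus PD 24, was -0.38 (SE 0.28, limma adjusted p = 0.635), for *Tefm* -0.67 (SE 0.30, limma adjusted p = 0.438) and for *Polg2* -0.52 (SE 0.29, limma adjusted p = 0.526). The difference was tested as an interaction in limma and did not pass for any of them. *Tefm* and *Polg2* rested on 50 to 135 and 36 to 110 reads a library.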

How the results depend on the processing

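No member passed between genotypes under any of the alternatives, and none passed the interaction under its 5 alternatives. *Tfam* stayed lower in P in all 11 alternatives, from -1.56 to -0.62, and passed in 8 of them (limma adjusted p 0.0032 to 0.123). It did not pass without an FPKM filter (limma adjusted p = 0.109), without the MFN2 WT PD 24 pair (0.0628) or without both L/Z libraries of PD 52 (0.123). *Tfb1m* stayed higher at PD 52 in all 11, from 0.66 to 0.86, and passed in 6. *Tfb1m* passed as lower in P with further scaling (-0.53, limma adjusted p = 0.0478) or without the MFN2 WT PD 52 pair (-0.56, 0.0462), and *Tfam* passed as higher at PD 52 with voom on recovered reads (1.48, 0.0290). Of the members' values under these alternatives, 9 between genotypes and 3 with age changed sign, all of them uncalled. Between genotypes, leaving out both L/Z libraries of PD 52 is the same fit as leaving out that pair. The sign changes of *Twnk* and *Polg2* there are counted under both settings. With a pair left out the genotype difference ran from -0.0902 to 0.139 for *Lrpprc*, -0.0547 to 0.106 for *Tfb2m* (-0.0039 without the P PD 52 pair), -0.153 to 0.00998 for *Twnk*, -0.182 to 0.165 for *Tefm* and -0.171 to 0.0359 for *Polg2* (0.01 without the P PD 52 pair), and the age difference of *Polg* from -0.0574 to 0.0616. Without both L/Z libraries of PD 52 the genotype difference was 0.00998 for *Twnk* and 0.0359 for *Polg2*, and with further scaling the age difference of *Polg* was 0.00024. The number of all genes called between genotypes, 29, was 7 with a pseudocount of 0.1, 0 without a filter, 71 for protein-coding genes, 114 with voom, 3 in the additive model, 0 without both L/Z libraries of PD 52 and 0 to 2 with a pair left out. For stage it was 3010 without a filter, 942 without both L/Z libraries of PD 52 and 2369 to 5953 with a pair left out. For age it was 791 and 478 under the same settings, and 0 to 4905 with a pair left out, the 0 without the MFN2 cKO P pair, where 5119 genes had an unadjusted p under 0.05. For the interaction, 3 as reported, it was 74, 0, 0, 204 and 624 with the smaller pseudocount, no filter, further scaling, protein-coding genes and voom. In the other settings where 0 genes passed, limma left 1816 to 3316 genes at an unadjusted p under 0.05. The cause of these shifts was not tested. At a pseudocount of 0.1, 2 members instead of 1 were past 2-fold between the stages in MFN2 cKO at PD 52, and 2 instead of 1 were lower with age in MFN2 cKO L/Z, where further scaling left 0. The mean difference of the mitochondrial sum kept its sign in each factor with all 13 messenger RNAs, further scaling or the share of reads, but between genotypes 2 pairs were higher and 2 lower under the last 2 settings, against 1 and 3. Pairs in the fits are libraries that share both other factors. By replicate number, no paired analysis was possible because each group held 1 library. With 1 library a group, precision is limited by the 4 pairs, and for *Polg2* and *Slirp* also by their reads.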
